A study of Mus musculus with 6 samples.

Results

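Complexes II to V of the respiratory chain were examined as a set of 55 gene symbols among the 55011 in the count table of a mouse visceral fat study. A symbol was a member if it was Sdha, Sdhb, Sdhc, Sdhd or Cyc1, or if it began with Uqcr, Cox4, Cox5, Cox6, Cox7, Cox8, Atp5, mt-Co, mt-Cytb or mt-Atp. The 10 symbols ending in -ps, a mark for pseudogenes, were left out. The rule used names and no measured value. It found 49 nuclear genes and 6 genes of the mitochondrial genome: 4 of complex II, 10 of complex III (1 of them mitochondrial), 22 of complex IV (3 mitochondrial) and 19 of complex V (2 mitochondrial).

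Whole visceral adipose tissue came from male C57BL/6 mice aged 30 weeks, fed low-fat food for 14 weeks and then high-fat food for 16 weeks, and collected at zeitgeber time 0. Every mouse carried Foxp3.Cre-YFP, a Cre recombinase expressed with a yellow fluorescent protein from Foxp3, a gene that marks regulatory T cells. The 2 groups were bmal1WT (n = 3) and bmal1KO (n = 3), called Bmal1WT and Bmal1KO here. Bmal1 (Arntl) encodes a transcription factor of the circadian clock, and the contrast asks how fat differs when it is deleted with a Cre that acts in regulatory T cells. Nothing in the labels states that the libraries of a group came from different animals, and a p-value here reflects only the spread among these libraries, which may be technical.

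Complex II oxidises succinate and passes its electrons to ubiquinone, complex III hands them on to cytochrome c, and complex IV passes them to oxygen. Complexes III and IV pump protons as they work, and complex V, the ATP synthase, lets the protons flow back and makes ATP. Most subunits are encoded in the nucleus, while the mitochondrial genome encodes a few that form the catalytic cores and the proton channel. In white fat, mitochondria supply energy for fat synthesis and breakdown.

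Each library held 6514620 to 9529198 counts. Of the libraries, 2 stood apart: Bmal1KO replicate 1 had the lowest total and a count on 30019 genes, against 19009 to 20145 in the others, and Bmal1WT replicate 1 held 2412 counts on 15 epididymis and testis genes, against 4 to 34 elsewhere. Adipocyte markers were abundant in every library, with a summed level of 42673 to 53310 CPM (counts scaled by library size) in Bmal1WT and 27434 to 53213 in Bmal1KO, while the brown fat gene Ucp1 had 2 to 28 counts. Arntl had 273, 242 and 373 counts in Bmal1WT and 324, 289 and 314 in Bmal1KO, and a count from whole tissue does not check a deletion aimed at regulatory T cells. Foxp3 had 0 counts in the 3 Bmal1WT libraries and 3, 0 and 2 in Bmal1KO.

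Stretches of DNA upstream of 7 members are printed as examples. They come from the RefSeq promoter table (GRCm38.p6), which held 36 of the members, and lie upstream of both the RefSeq and the GENCODE start. They are written in the direction of transcription, with letters that match a searched motif in capitals. Sdha, Uqcrc1 and Atp5b are shown because they had lower values in every Bmal1KO library. Sdhd, Uqcr11, Cox6a1 and Atp5l are shown because motifs lie in their stretches. Matches outside the printed stretches are not seen here. Uqcrc1 also holds GCATGCGC, a searched motif, at bases 31 and 33 from its RefSeq start, and Uqcr11 holds it at base -4.
Sdha, chr13:74350281-74350380, minus strand: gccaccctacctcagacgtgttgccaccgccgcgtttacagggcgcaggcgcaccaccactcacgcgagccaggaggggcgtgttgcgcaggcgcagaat
Uqcrc1, chr9:108936533-108936632, plus strand: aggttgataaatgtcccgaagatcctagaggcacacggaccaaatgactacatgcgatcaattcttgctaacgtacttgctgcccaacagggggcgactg
Atp5b, chr10:128083173-128083272, plus strand: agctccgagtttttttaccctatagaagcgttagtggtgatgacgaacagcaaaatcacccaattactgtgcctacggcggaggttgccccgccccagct
Sdhd, chr9:50603850-50603949, minus strand: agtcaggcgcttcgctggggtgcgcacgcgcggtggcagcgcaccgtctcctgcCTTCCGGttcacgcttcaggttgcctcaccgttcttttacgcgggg
Uqcr11, chr10:80406831-80406930, minus strand: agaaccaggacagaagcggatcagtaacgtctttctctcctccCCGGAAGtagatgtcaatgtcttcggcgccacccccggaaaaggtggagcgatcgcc
Cox6a1, chr5:115349029-115349128, minus strand: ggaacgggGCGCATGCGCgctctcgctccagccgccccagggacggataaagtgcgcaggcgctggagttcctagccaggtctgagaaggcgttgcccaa
Atp5l, chr9:44920883-44920992, minus strand: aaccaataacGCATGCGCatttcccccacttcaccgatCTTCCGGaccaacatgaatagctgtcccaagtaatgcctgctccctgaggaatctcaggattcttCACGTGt

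The motifs were searched on both strands over 250 bases before and 50 bases after each start. GCATGCGC, the core of the site of NRF1, a factor known for driving respiratory genes, was found in 7 of the 36 members (19.4%) and in 3.05% of the 27025 genes in the table. CCGGAAG, a core shared by ETS factors including GABP, another regulator of these genes, was found in 13 of 36 (36.1%) and in 9.93% of all genes. CACGTG, the E-box that BMAL1 binds with its partner CLOCK, was found in 4 of 36 (11.1%) and in 8.09% of all genes, the 4 being Atp5g1, Atp5g3, Atp5l and Atp5pb. No motif letters overlap between the 3 searches, but GCGCATGCGC, as in Cox6a1, holds the NRF1 core once on each strand. The 4 members with an E-box had a median log2 fold change (Bmal1KO over Bmal1WT) of -0.08, against -0.06 for the 31 tested members without one. For the NRF1 core the medians were -0.10 with and -0.07 without, and for the ETS core -0.05 with and -0.08 without. These medians are descriptions, and their differences were not tested.

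Of the 55 members, 52 had enough counts to be tested. Cox7b2 and Cox8c, testis isoforms of complex IV subunits, had 0 counts in all 6 libraries, where a floor of 3 counts corresponds to 0.323 to 0.451 CPM. Cox6c2, which the annotation lists as a processed pseudogene, had 4 to 11 counts. In edgeR's quasi-likelihood test, adjusted by Benjamini and Hochberg's method over all 13859 genes tested, 0 of the 52 members and 0% of all genes passed. The smallest adjusted p was 0.414 among the members and 0.265 among all genes. DESeq2 and limma voom also called 0 members, while over all genes DESeq2 called 60 and limma voom 0. At an unadjusted p under 0.05 by edgeR there were 2 members, Cox4i2 and Uqcrc1, which is 3.85% of those tested beside 9.31% of all genes (1290).

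The fold changes were small and more often below 0 than above. In 36 of 52 members (69.2%) the log2 fold change was below 0, beside 48.0% of all genes, and their median was -0.09 beside 0.02 over all genes. With libraries scaled by their totals alone, 26 of 52 were below 0 and the members' median was 0.00, while the median of all genes moved to 0.11, so the members' median relative to all genes was -0.11 under both scalings. That relative median rested on single libraries: it was -0.03 without Bmal1KO replicate 3, -0.06 without Bmal1WT replicate 1, -0.19 without Bmal1KO replicate 2 and -0.21 without Bmal1WT replicate 3. In 50 of 52 members the fold change was smaller than 0.5 on the log2 scale, and in 47 of 52 the 95% interval from edgeR's SE lay within 1 log2 unit of 0. The 3 Bmal1KO libraries all lay below the 3 Bmal1WT libraries in 6 members (11.5%), beside 7.85% of all genes: Sdha, Uqcrc1, Cyc1, Cox4i2, Atp5a1 and Atp5b. They all lay above in 1 member (1.92%), Cox7a2l, beside 7.83% of all genes.

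Without the 2 libraries that stood apart, Bmal1WT replicate 1 and Bmal1KO replicate 1, the members' median was -0.03 and 29 of 52 were below 0. The log2 fold change was then -0.33 for Sdha, -0.33 for Uqcrc1, -0.35 for Cyc1, -1.88 for Cox4i2, 0.39 for Cox7a2l, -0.28 for Atp5a1 and -0.24 for Atp5b, and 0 members passed. These 7 genes were named because their groups do not overlap, which leaving out libraries cannot undo.

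**Figure D1:**
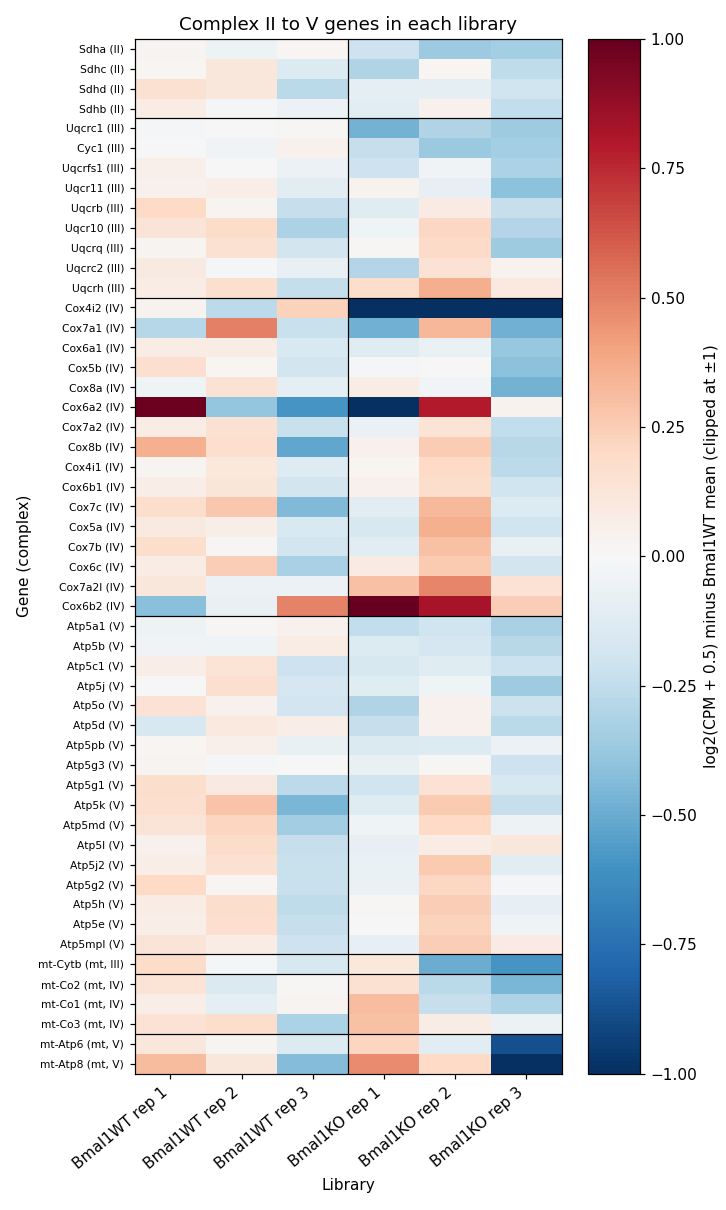
Each row is 1 tested gene, grouped by complex with nuclear genes above and mitochondrial genes (mt) below, and each column is 1 library; color gives log2(CPM + 0.5) minus the gene's Bmal1WT mean, clipped at ±1. Bmal1WT replicate 3 and Bmal1KO replicate 3 are mostly blue and Bmal1KO replicate 2 mostly red among the nuclear genes, so columns differ within a group as much as between groups.

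Libraries of 1 group differed from each other by more than the groups did. The nuclear members' median deviation from their Bmal1WT mean, in log2(CPM + 0.5), was 0.07, 0.08 and -0.18 in the Bmal1WT libraries, in the order of their numbers, and -0.11, 0.14 and -0.22 in the Bmal1KO libraries. The lowest library of each group was thus close to the other group's lowest, and the highest library was a Bmal1KO one. All members together took 2.51%, 2.49% and 2.32% of the counts in Bmal1WT and 2.61%, 2.35% and 2.10% in Bmal1KO, so the highest and the lowest share were both in Bmal1KO.

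Complex II, succinate dehydrogenase, is the only one of these complexes with no mitochondrially encoded subunit. All 4 of its genes had a fold change below 0, with a median of -0.16 and 0 past the test. With libraries scaled by their totals alone the median was -0.06, so its size depends on the scaling. Sdha (mm10, chromosome 13, 74322254 to 74350280), the flavoprotein that oxidises succinate, was at 649, 617 and 647 CPM in Bmal1WT and 551, 495 and 503 CPM in Bmal1KO. The groups did not overlap, and the log2 fold change was -0.30 with SE 0.15 (edgeR, adjusted p = 0.561). Sdhb, the iron-sulfur subunit that takes electrons from Sdha, was at 388, 366 and 355 against 343, 381 and 312 CPM, and the groups overlapped.

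The membrane anchors, Sdhc and Sdhd, hold the ubiquinone site. Sdhc was at 142, 151 and 127 CPM in Bmal1WT and 113, 142 and 117 CPM in Bmal1KO, for a log2 fold change of -0.18 (SE 0.16). Sdhd was at 229, 223 and 171 against 194, 193 and 180 CPM (-0.14, SE 0.16). Both overlapped between groups. Per length of transcript, Sdhb was the highest of the 4 at 324 ± 15.1 CPM per kilobase (SD, n = 3) in Bmal1WT and Sdhc the lowest at 44.1 ± 3.79.

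In complex III, 8 of 9 nuclear genes were below 0 with a median of -0.10 and 0 past the test. The median was -0.002 with libraries scaled by their totals alone, so its direction is not settled. The values farthest below 0 were those of Uqcrc1 and Cyc1. Uqcrc1 (chromosome 9, 108936633 to 108949623), a core protein facing the matrix, was at 592, 600 and 603 CPM in Bmal1WT and 432, 485 and 469 CPM in Bmal1KO. The Bmal1WT libraries lay close together (SD 5.90 CPM) and every Bmal1KO library lay below them. The log2 fold change was -0.37 with SE 0.15, a difference of -22.8% (edgeR, adjusted p = 0.485).

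Cyc1 (chromosome 15, 76343523 to 76346260) encodes cytochrome c1, the heme subunit that reduces cytochrome c. It was at 339, 331 and 350 CPM in Bmal1WT and 289, 263 and 268 CPM in Bmal1KO, with no overlap and a log2 fold change of -0.31 (SE 0.14, adjusted p = 0.537). Uqcrfs1, the Rieske iron-sulfur protein, had -0.18 (SE 0.15), and the other core protein, Uqcrc2, had -0.03 (SE 0.16).

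The 5 small subunits of complex III had a median of -0.04, with all 5 overlapping between groups. Uqcrh, the hinge protein next to cytochrome c1, was the 1 nuclear gene of the complex above 0, at 279, 296 and 225 CPM in Bmal1WT and 299, 340 and 283 CPM in Bmal1KO (0.21, SE 0.17). Within 1 complex, the fitted values thus ran from -0.37 for Uqcrc1 to 0.21 for Uqcrh; the difference between genes was not tested. Per length, Uqcr11 was the highest nuclear gene at 666 ± 43.5 CPM per kilobase in Bmal1WT and Uqcrc2 the lowest at 114 ± 6.79.

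Complex IV, cytochrome c oxidase, had no common direction. Of its 16 tested nuclear genes 9 were below 0, with a median of -0.01, and the 10 subunits found in most tissues were split 5 and 5 with a median of 0.00. The median of the 16 ran from -0.17 to 0.09 on leaving out 1 library at a time and was 0.08 with libraries scaled by their totals alone. Cox4i1, the widely expressed form of a regulatory subunit, was at 1215, 1280 and 1092 CPM in Bmal1WT and 1211, 1367 and 995 CPM in Bmal1KO. Its log2 fold change of -0.01 had a 95% interval of -0.41 to 0.39. Cox4i1 was also the highest nuclear gene of the complex per length, at 1563 ± 125 CPM per kilobase in Bmal1WT.

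The largest fold change of any member was in Cox4i2 (chromosome 2, 152754173 to 152765037), the alternative form of the same subunit, known from lung and vessel walls and for its response to low oxygen. It had 49, 38 and 60 counts in Bmal1WT and 15, 15 and 10 in Bmal1KO, or 5.59, 4.45 and 6.46 against 2.26, 1.70 and 1.24 CPM. The highest Bmal1KO library lay below the lowest Bmal1WT one. The log2 fold change was -1.67 with SE 0.50 (95% interval -2.78 to -0.57), a difference of -68.7%. By edgeR its adjusted p was 0.414.

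Cox4i2 was a small share of the reads on the pair. Its share of Cox4i1 and Cox4i2 counts, whose transcripts have 765 and 733 bases, was 0.464% ± 0.121 (SD, n = 3) in Bmal1WT and 0.145% ± 0.0355 in Bmal1KO. The libraries' 95% Wilson intervals, which cover counting error only, reached from 0.253% to 0.756% in Bmal1WT and from 0.0677% to 0.307% in Bmal1KO. The difference in share had p = 0.1 in a two-sided exact permutation test, the smallest that 3 against 3 libraries allow.

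Markers of vessel cells were read beside Cox4i2. Of 10 mural cell genes, a list written after the value of Cox4i2 was seen, 9 had a fold change below 0 with a median of -0.51, and their summed level was 412 to 439 CPM in Bmal1WT and 271 to 327 CPM in Bmal1KO. The tenth, Higd1b, chosen for mention after its value was seen, had every Bmal1KO library above every Bmal1WT library (0.35, SE 0.40). Acta2 made up most of the summed level, with means of 234 CPM in Bmal1WT and 168 CPM in Bmal1KO. It was the only mural gene with every Bmal1KO library below every Bmal1WT library, so the gap between the sums rests largely on it. Of 10 endothelial markers all 10 were below 0, with a median of -0.64 and sums of 406 to 864 against 277 to 478 CPM, which overlap. No gene of either list passed the test, and 0 of them was at 0 counts in all libraries. Their part in the value of Cox4i2 was not tested, and in bulk tissue fewer cells of a type and less RNA per cell cannot be told apart.

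**Figure D2:**
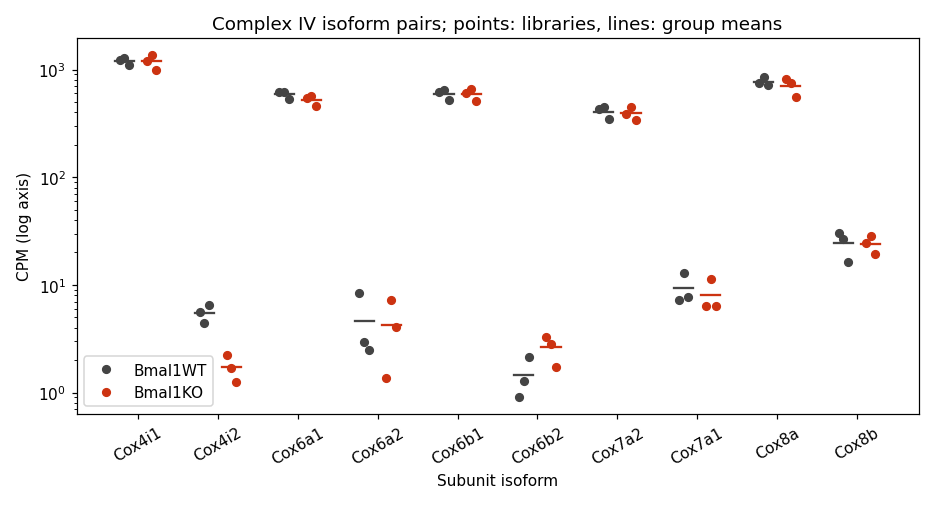
CPM on a log axis for 5 pairs of complex IV subunit isoforms, with the common form of each pair first; points are libraries and lines are group means (n = 3). Cox4i2 is the only gene shown whose groups do not overlap, with 4.45 to 6.46 CPM in Bmal1WT and 1.24 to 2.26 CPM in Bmal1KO.

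The other alternative isoforms of complex IV overlapped between groups. Cox6a2, Cox7a1 and Cox8b are the forms of heart and skeletal muscle, and some are also found in brown fat. Cox6a2 had 73, 25 and 23 counts in Bmal1WT and 9, 64 and 33 in Bmal1KO, and its share of Cox6a1 and Cox6a2 counts was 0.747% ± 0.490 against 0.801% ± 0.515 (exact permutation p = 1). Cox7a1 held 2.22% ± 0.568 against 1.98% ± 0.466 of the counts of Cox7a1 and Cox7a2 (exact permutation p = 0.6). Cox8b held 3.06% ± 0.850 against 3.31% ± 0.353 of those of Cox8a and Cox8b (exact permutation p = 0.7).

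These isoforms were spread widely between libraries of 1 group, Cox6a2 most of all. Ucp1, with too few counts to be tested, had 17, 9 and 5 in Bmal1WT and 2, 28 and 3 in Bmal1KO. Its highest libraries, Bmal1WT replicate 1 and Bmal1KO replicate 2, were also those of Cox6a2. The tested brown or beige fat genes did not peak in Bmal1WT replicate 1. In Bmal1WT, Cidea had 33, 36 and 24 counts, Elovl3 33, 34 and 48, Otop1 166, 189 and 101, and Ppara 3, 16 and 19. The Bmal1KO counts were 55, 80 and 67 for Cidea, 19, 71 and 14 for Elovl3, 149, 163 and 125 for Otop1, and 6, 5 and 11 for Ppara. Of these 4 genes, only Cidea had every Bmal1KO library above every Bmal1WT library, beside 7.83% of all genes. Its log2 fold change was 1.28 (SE 0.38, edgeR, adjusted p = 0.414). Within Bmal1KO, Cidea and Elovl3 were highest in replicate 2 and Ppara in replicate 3. For Otop1 the counts give no ranking, because they are not scaled by library size and Bmal1KO replicate 1 had the lowest total. Of 15 muscle genes 4 were tested, with a summed level over all 15 of 50.5 to 84.8 CPM in Bmal1WT and 55.5 to 89.5 CPM in Bmal1KO. Their part in the isoform values was not tested. Leaving out Bmal1WT replicate 1 and Bmal1KO replicate 1, the fold change of Cox6a2 went from -0.10 (SE 0.66) to 1.08 (SE 0.59), so its direction rests on those libraries.

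Cox6b2, known as a testis form, had the largest fold change above 0 among the members. It had 8, 11 and 20 counts in Bmal1WT and 22, 25 and 14 in Bmal1KO, with overlap and a log2 fold change of 0.85 (SE 0.65, 95% interval -0.58 to 2.28). It held 0.254% ± 0.140 against 0.434% ± 0.102 of the counts of Cox6b1 and Cox6b2 (exact permutation p = 0.2). Its lowest count was in Bmal1WT replicate 1. Of the epididymis and testis genes, that library had 906 counts on Lcn8 and 739 on Lcn9. It had 0 counts on the testis genes Prm1, Prm2, Tnp1 and Tnp2. Per length Cox6b2 was the lowest protein-coding gene of complex IV with any count, at 2.48 ± 1.09 CPM per kilobase in Bmal1WT.

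Among the common forms, Cox6a1 was at 626, 624 and 534 CPM in Bmal1WT and 546, 565 and 456 CPM in Bmal1KO (-0.19, SE 0.17). Cox6b1 (0.01), Cox7a2 (-0.06), Cox7b (0.04) and Cox8a (-0.13) had log2 fold changes with SE of 0.17 to 0.19, and all overlapped. Nothing in these common subunits set the groups apart beyond the spread between libraries.

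Cox7a2l (chromosome 17, 83501918 to 83517330) resembles Cox7a subunits but is known as a factor that joins complexes III and IV into supercomplexes. It was at 131, 117 and 117 CPM in Bmal1WT and 149, 171 and 134 CPM in Bmal1KO. It was the 1 member with every Bmal1KO library above every Bmal1WT library, and its log2 fold change was 0.31 with SE 0.16 (edgeR, adjusted p = 0.561). Of its 38-base windows 21.9% also occur in another annotated gene, Gm6969, so part of its count may depend on how such reads were assigned.

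In complex V, the ATP synthase, 10 of 17 nuclear genes were below 0, with a median of -0.07 and 0 past the test. That median was 0.02 without Bmal1WT replicate 1, 0.078 without both Bmal1WT replicate 1 and Bmal1KO replicate 1, and 0.02 with libraries scaled by their totals alone, so its direction is not settled. The F1 head, which makes ATP, had 4 of 5 below 0 and a median of -0.17. Atp5b, its catalytic beta subunit (chromosome 10, 128083273 to 128090391), was at 1813, 1795 and 1956 CPM in Bmal1WT and 1685, 1646 and 1526 CPM in Bmal1KO. Atp5a1, the alpha subunit that alternates with beta in the head, was at 1371, 1428 and 1460 against 1196, 1238 and 1134 CPM.

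Neither of these genes overlapped between groups, and their log2 fold changes were -0.20 (SE 0.17, adjusted p = 0.732) and -0.26 (SE 0.16, adjusted p = 0.641). Atp5c1, the gamma subunit that turns inside the head, was at 604, 632 and 500 against 514, 530 and 495 CPM (-0.17, SE 0.16) with overlap. Atp5b had the highest level per length of the complex, at 968 ± 46.0 CPM per kilobase in Bmal1WT.

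The 4 genes of the peripheral stalk, which holds the head still, had a median of -0.13, and the 5 small membrane subunits, which shape the dimer, had a median of 0.03 with 4 of 5 above 0. The rotating c ring is built from 1 mature protein encoded by Atp5g1, Atp5g2 and Atp5g3. Atp5g3 supplied 76.8% ± 2.65 of their counts in Bmal1WT and 76.3% ± 1.52 in Bmal1KO (exact permutation p = 0.9), with no correction for length.

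Atp5g1 supplied 18.0% ± 2.13 against 18.0% ± 1.25 (exact permutation p = 0.9) and Atp5g2 5.22% ± 0.550 against 5.66% ± 0.290 (exact permutation p = 0.2). The shares of Atp5g1 and Atp5g3 thus differed between groups by less than the SD of either group. The share of Atp5g2 overlapped between groups, but its means differed by more than the Bmal1KO SD. Atp5g1 was the lowest nuclear gene of complex V per length, at 18.1 ± 2.82 CPM per kilobase, a value that rests on the 4715-base transcript chosen for it. Of the windows of Atp5g2, 87.6% also occur in other annotated genes.

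**Figure D3:**
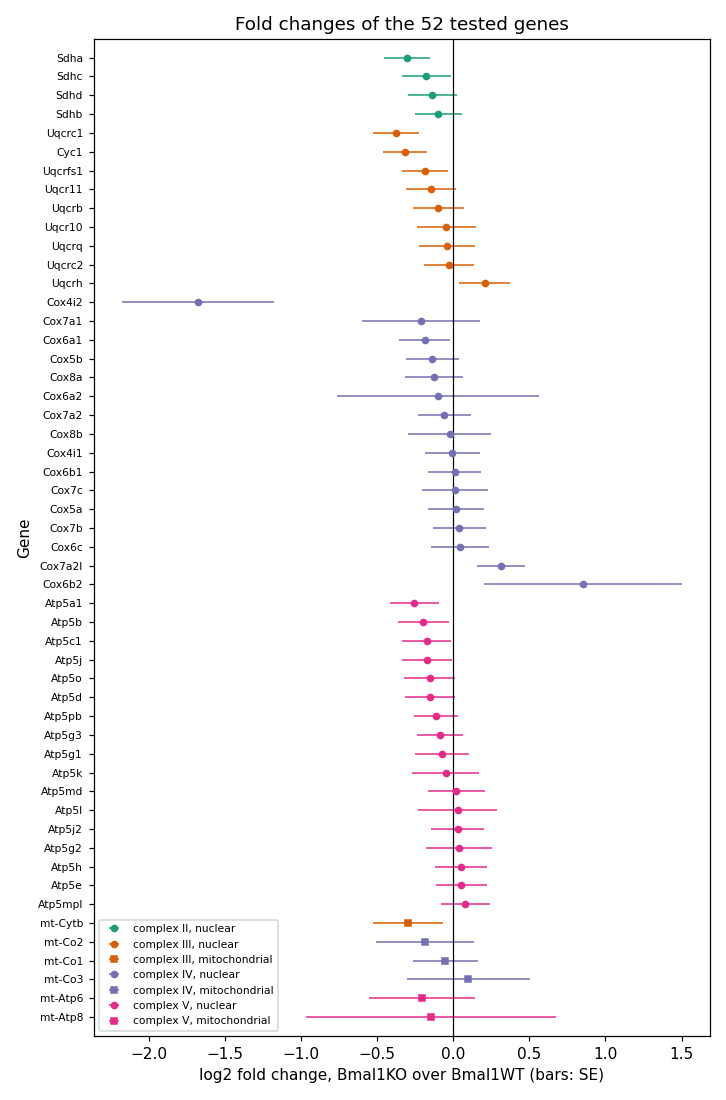
The log2 fold change (Bmal1KO over Bmal1WT) of each of the 52 tested genes, with bars of 1 SE; circles are nuclear and squares mitochondrial genes, colored by complex. Cox4i2 lies farthest from 0 at -1.67, Cox6b2 is the farthest above 0 at 0.85, and 50 genes lie within 0.5 of 0.

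The 6 mitochondrial members come from 1 circular genome that is read as long precursors. They took 0.984%, 0.890% and 0.882% of the counts in Bmal1WT and 1.12%, 0.749% and 0.723% in Bmal1KO. Both the highest and the lowest libraries were Bmal1KO ones. Their counts per count on a nuclear member were 0.646, 0.558 and 0.615 against 0.750, 0.467 and 0.527, so Bmal1KO replicate 1 also stood above and the other Bmal1KO libraries below every Bmal1WT library in this ratio.

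Of their counts, 99.7% to 99.8% fell on mt-Cytb and mt-Co1 in every library. mt-Cytb (mitochondrial genome, 14145 to 15288), the cytochrome b of complex III, was at 5762, 5006 and 4542 CPM in Bmal1WT and 5471, 3599 and 3375 CPM in Bmal1KO. mt-Co1 (5328 to 6872), the catalytic subunit of complex IV, was at 4587, 4121 and 4480 against 5439, 3738 and 3544 CPM. Their log2 fold changes were -0.30 (SE 0.23) and -0.05 (SE 0.21), and both overlapped because of Bmal1KO replicate 1.

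The same library had the highest summed adipocyte marker level of the Bmal1KO libraries. The 16 adipocyte markers summed to 42673, 48360 and 53310 CPM in Bmal1WT and 53213, 33094 and 27434 CPM in Bmal1KO. All 16 had a fold change below 0, with a median of -0.33 and 0 past the test. The macrophage markers went the other way, with 11 of 13 above 0, and summed to 12437 to 16519 CPM in Bmal1WT and 10744, 19417 and 23853 CPM in Bmal1KO, and all 12 T cell markers were above 0 with a median of 1.90. Their part in the members' values was not tested.

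The median log2 fold change of the 6 mitochondrial genes was -0.17, with 5 below 0 and 0 past the test. It was -0.43 without Bmal1KO replicate 1, 0.05 without Bmal1KO replicate 3 and -0.36 without Bmal1WT replicate 1 and Bmal1KO replicate 1, so its sign and size rest on single libraries. In the last of these fits mt-Cytb had -0.45 with SE 0.14 (edgeR, adjusted p = 0.181).

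The other mitochondrial members had few counts. mt-Atp6 was at 5.71 to 12.8 CPM, mt-Co2 at 6.70 to 10.5, mt-Co3 at 3.77 to 6.01 and mt-Atp8 at 0.248 to 2.86 CPM over the 6 libraries, against 3544 to 5439 CPM for mt-Co1. Of the 38-base windows of mt-Co2, mt-Co3 and mt-Atp6, 100%, 99.9% and 99.5% also occur in annotated genes on chromosome 1 (Gm28661, Gm28437 and Gm10925), which themselves had 34 to 125 counts. For mt-Co1 the share was 58.4%, for mt-Atp8 3.59% and for mt-Cytb 1.99%. How the authors treated reads with several hits is not given in the sources used here, so the levels of mt-Co2, mt-Co3 and mt-Atp6 are uncertain. Their log2 fold changes were -0.19 (SE 0.32), 0.10 (SE 0.40) and -0.21 (SE 0.35), and that of mt-Atp8 was -0.14 (SE 0.82).

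Sharing of sequence also touched nuclear members, many of which have processed copies in the genome. Of the 55 members, 16 shared no window with another gene, 17 shared over 20% and 10 over 50%. The 12 tested nuclear members over 20% had a median log2 fold change of -0.01, and the other 34 had -0.09. Of the genes that did not overlap between groups, Sdha and Cox4i2 shared 0%, Cyc1 0.61%, Uqcrc1 0.62%, Atp5b 2.29%, Atp5a1 3.78% and Cox7a2l 21.9%.

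Fold changes of the nuclear members lay lower in the longer transcripts. The 28 with transcripts under 1000 bases had a median log2 fold change of -0.03 with 16 below 0, the 13 of 1000 to 2000 bases had -0.14 with 11 below 0, and the 5 of 2000 bases or more had -0.18 with 4 below 0. All tested genes in the same classes had medians of 0.03, -0.08 and 0.05, with 46.5%, 58.9% and 44.7% below 0. Every Bmal1KO library lay below every Bmal1WT library in 1, 3 and 2 members of the classes, beside 5.8%, 13.2% and 6.5% of all genes in them. Across the 46 tested nuclear members, Spearman's rho between length and fold change was -0.36, and it was -0.45 over the 41 members without the tissue isoforms. Over 13658 genes it was 0.15. These are descriptions across genes of the same 6 libraries, and genes are not independent replicates. Each length is that of 1 chosen transcript, the longest where several ranked equally. The longest class thus holds Atp5g1 by a 4715-base transcript and Atp5md by a 2733-base one, and other transcripts could move genes between classes.

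**Figure D4:**
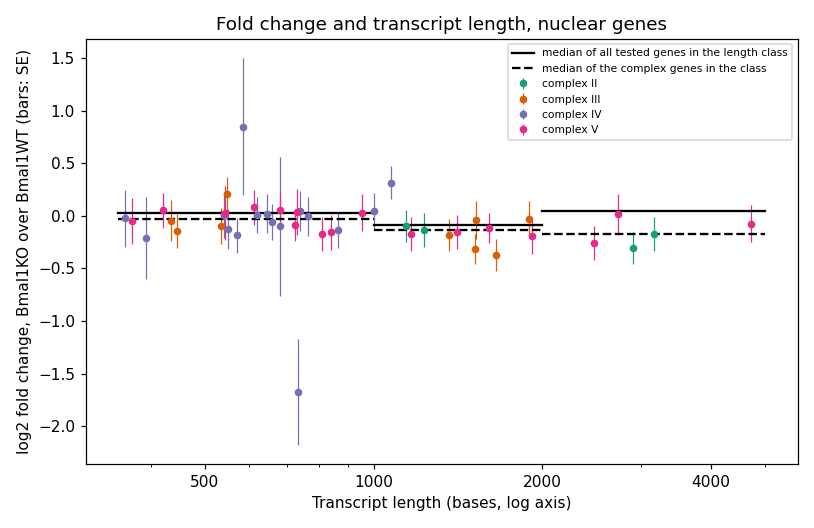
The log2 fold change of the 46 tested nuclear genes (points, bars of 1 SE, colored by complex) against the length of the transcript on a log axis, with the median of all tested genes (solid line) and of the complex genes (dashed line) in 3 length classes. The dashed line is at -0.03, -0.14 and -0.18 from short to long transcripts, and the solid line at 0.03, -0.08 and 0.05.

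Genes that serve these complexes were read from lists. Of 19 genes for electron carriers and ubiquinone synthesis 17 were below 0, beside 48.0% of all genes, with a median of -0.34 beside 0.02 and 0 past the test. In 7 of the 19 every Bmal1KO library lay below every Bmal1WT library, beside 7.85% of all genes. Coq8a, a kinase-like protein of ubiquinone synthesis, had a mean of 57.4 ± 12.9 CPM (SD, n = 3) in Bmal1WT and of 32.1 ± 8.57 in Bmal1KO (-0.84, SE 0.24). Etfdh, which feeds electrons from fat oxidation to ubiquinone, was at 182 ± 26.6 and 126 ± 7.56 (-0.53, SE 0.16). Coq9, a lipid-binding protein of the same synthesis, was at 171 ± 6.77 and 126 ± 16.6 (-0.44, SE 0.16). The median of this list lay farther below 0 than those of complexes II to V themselves.

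Of 38 assembly factors 35 were tested, and 23 were below 0, beside 48.0% of all genes. Their median was -0.17 beside 0.02, with 0 past the test. In 7 of the 35 every Bmal1KO library lay below every Bmal1WT library, beside 7.85% of all genes. Tmem70 and Atpaf2, which help build complex V, gave fold changes on the log2 scale of -0.49 (SE 0.15) and -0.45 (SE 0.16), and Cox19, a copper-handling factor of complex IV, had -0.41 (SE 0.15). Of 18 regulators of mitochondrial biogenesis 8 were below 0, with a median of 0.02. The smallest p among them were those of Tfb2m, a mitochondrial transcription factor (-0.50, SE 0.33), Twnk, the mitochondrial DNA helicase (-0.46, SE 0.34), and Yy1, a nuclear factor (0.30, SE 0.23).

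Of 7 tested genes for ATP export and synthase inhibition 4 were below 0, with a median of 0.00. Atpif1, the inhibitor of complex V, was at 179 ± 38.1 CPM in Bmal1WT and 236 ± 43.6 in Bmal1KO (0.40, SE 0.20). Slc25a4, which exchanges ADP for ATP, and Slc25a3, which imports phosphate, had -0.24 (SE 0.15) each. None of the 3 passed edgeR's test (adjusted p = 0.561, 0.642 and 0.651).

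Complex I, the other entry of electrons into the chain, gave values in the same range as the members. Its 7 core nuclear subunits were all below 0 with a median of -0.14, and 3 of its 5 tested mitochondrial genes were below 0 with a median of -0.07. Ndufv1 had -0.27 (SE 0.17) and Ndufs1 -0.29 (SE 0.19), with 0 past the test. mt-Nd1 was at 7720 ± 630 CPM in Bmal1WT and 6630 ± 1235 in Bmal1KO (-0.22, SE 0.21), with the larger SD in Bmal1KO, as for mt-Cytb and mt-Co1.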

How the data were processed

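RNA of 6 libraries (2 ng each, primed with oligo(dT), amplified and fragmented by transposase, paired reads of 38 bases, no molecular identifiers) was measured, per the labels' protocols. The deposited table holds a count for each gene symbol, made by the authors with STAR 2.7.3a and featureCounts on mm10, per the submitters' processing notes. Which annotation and strand setting they used, and what became of multi-mapping reads, is not given in the sources used here. All columns were mapped to samples (0 unused). Counts were tested on the whole table with edgeR 4.0.16 in R 4.3.3: filterByExpr, TMM scaling, the robust quasi-likelihood F-test and Benjamini-Hochberg adjustment at a threshold of 0.05. CPM uses TMM-scaled library sizes. The SE is the absolute log2 fold change divided by the square root of F, and its 95% intervals use the fit's degrees of freedom. The fit was tested on simulated data. DESeq2 1.42.0 and limma 3.58.1 (voom) were alternatives.

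Coordinates, transcripts (the APPRIS principal one for length) and shared 38-base windows came from GENCODE M21 (mm10), in which 52 members matched 1 gene by symbol and the other 3 were matched through RefSeq names. Sample titles gave the groups and the replicate numbers. Described in full were the mitochondrial members, the 3 nuclear members of smallest p in each complex and the isoform groups; from each pathway list, up to 3 genes of smallest p. A gene that this rule would name is not reported here. Members and lists were chosen with earlier results of these data known. Of the marker lists, B cell genes (7 tested) and mesothelial genes (9 tested) were all above 0, and 6 of 9 stromal progenitor genes were. The B cell list summed to 45.5, 30.1 and 60.1 CPM in Bmal1WT and 59.2, 37.8 and 328 CPM in Bmal1KO. The gap between these sums thus rests largely on Bmal1KO replicate 3. Of 8 brown or beige fat genes 4 were tested, 2 of them above 0, Cidea (1.28) without overlap between groups.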

Additional observations from a re-analysis of the deposited data

How the results depend on the processing

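No alternative brought a member past the test. Over all genes, the calls went from 0 to 186 with no filter on low counts, 60 with DESeq2, 61 with Bmal1WT replicate 1 and Bmal1KO replicate 1 left out together, and 0 to 156 on leaving out 1 library at a time, the 156 without Bmal1KO replicate 1. The members' median relative to that of all genes was -0.11, and -0.57 both with no filter and with DESeq2, where many genes of few counts enter the median of all genes. The complex V median became 0.078 with the 2 libraries left out together. Members with every Bmal1KO library below every Bmal1WT library numbered 10 with those 2 left out (beside 23.0% of all genes) and 6 to 14 on leaving out 1 library, 14 without Bmal1WT replicate 3 (13.1% of all genes) or Bmal1KO replicate 2 (12.3%). On leaving out 1 library at a time, medians ran from -0.18 to -0.02 for all members (-0.21 to -0.03 relative to all genes), -0.25 to -0.11 for complex II, -0.19 to -0.02 for complex III, -0.17 to 0.09 for complex IV, -0.15 to 0.02 for complex V and -0.43 to 0.05 for the mitochondrial genes, and the members below 0 numbered 27 to 49. The fold change of Cox4i2 ran from -1.90 to -1.49 over all alternatives, with adjusted p from 0.124 to 0.695. Of 444 recomputed values of 30 named members, 42 in 15 genes changed sign, all from values that had not passed. Replicate numbers did not pair the samples (correlations of same-numbered deviations of -0.0695, 0.0942 and -0.0305). With the number as a block, 0 genes passed, 1121 had an unadjusted p under 0.05, and the members' median was -0.08. The trend in length and GC content was subtracted from 49 members only, and the mitochondrial genes have no value where they were left out before scaling. Depth limits Cox4i2, Cox6a2, Cox6b2, mt-Co3 and mt-Atp8, which had at most 73 counts in a library.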
